A study of Mus musculus with 157 samples.

Results

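Mouse megakaryocyte progenitors (MkP) labelled as Mettl3 knockout or wild type were compared in 8 of the 157 samples of the series. They were taken by their titles: 2 knockout and 2 wild-type libraries of input RNA, and 2 knockout and 2 wild-type libraries of RNA pulled down by an anti-m6A antibody (N6-methyladenosine), here called IP. The labels give the genotypes as Mettl3 -/- and wild type, and all samples as untreated. They give no strain, sex or age, no promoter or Cre line behind the deletion, and not the part of Mettl3 that was removed. Whether the 2 libraries of a group came from different mice is also not stated. The p-values therefore reflect the spread between libraries alone, which may be technical. The same tables hold 6 further cell types with 2 libraries per genotype (LT.HSC, ST.HSC, MPP, CMP, GMP and MEP), which gave 48 samples. The spread was estimated jointly from the pairs of these types and of MkP, which assumes that MkP libraries vary like the others.

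m6A is a methyl mark on adenosines of messenger RNA. METTL3 is the catalytic subunit of the complex that writes it, and reader proteins that bind the mark alter the stability, splicing or translation of the transcript. Megakaryocyte progenitors are committed to making megakaryocytes, the large marrow cells that shed platelets. Along that path the cells switch on the adhesion receptors of the platelet surface, the proteins stored in its alpha granules, the machinery that packs and releases granules, and the signalling proteins that couple receptors to secretion and integrin activation. GATA and ETS family factors and the factor NF-E2 drive many of these genes.

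Values of input RNA are the deposited normalised values, in which each read of a library is worth a fixed step. The 4 MkP input libraries held 7.48 M (knockout 1), 10.0 M (knockout 2), 12.8 M (wild type 1) and 19.4 M reads (wild type 2). The 4 IP libraries held 16.2, 12.3, 8.10 and 8.87 M counts in the same order. In the IP library of wild type 1, 15.5% of the genes expressed in the table were at 0, against 0.822% to 4.12% in the other 3 MkP libraries of that kind. In the input library of wild type 2 the share was 2.22%, the highest of the 4 inputs, where the lowest was 0.371%. The wild-type input pair correlated at r = 0.878 across 15030 genes, the third lowest of 14 pairs in the table, and the knockout pair at 0.941, the highest of them. Counts of called genes and some single genes are therefore given with and without these libraries.

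The cell type label was checked in wild-type MkP against the mean of the other 6 wild-type cell types. Of 15030 genes tested, 131 (0.872%) were higher and 177 (1.18%) lower in MkP at an adjusted p under 0.05 (limma on log2(value + 1), Benjamini-Hochberg over all genes). Of the 12 megakaryocyte markers, 10 were higher and none lower, with a median log2 difference of 4.01 against 0.03 over all genes tested. Pf4 was higher by 6.08 on the log2 scale and Itga2b by 3.93. Without wild type 1 the counts over all genes were 103 and 360, and without wild type 2 they were 20 and 12. RNA of other lineages was also present. Mpo, the neutrophil primary granule peroxidase, was at 32197 and 27726 in the wild-type libraries, about the level of Pf4. The wild-type libraries also differed in erythroid RNA: Hba-a2 was at 388 in wild type 1 and 8168 in wild type 2. The 11 T cell markers summed to 68.0 and 171 in the knockout and 79.4 and 119 in the wild type, with Cd3e and Cd5 at 0 in all 4 input libraries and Cd3d between 10.8 and 39.6.

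Mettl3 itself (chromosome 14, 52294841 to 52308741, GRCm38) did not separate the genotypes in input RNA. Its values were 501 and 455 in the knockout and 486 and 604 in the wild type, a log2 fold change of -0.18 (SE 0.70, adjusted p = 0.981, limma). The groups overlapped. Since the values are summed over the whole gene and the deleted part is not given, this does not check the label. In the IP libraries Mettl3 was at 43.3 and 55.9 CPM (counts scaled to library size) in the knockout against 137 and 181 in the wild type, lower without overlap, at an adjusted p of 0.578 (edgeR).

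The platelet genes did not move as a block. Pf4, Gp1bb, Serpine2 and Mmrn1 were lower in both knockout libraries by over an order of magnitude in their means, Itga2b and Gp9 were level, and Gp5, Selp, Esam and F11r were higher. Each of these differences missed the threshold after adjustment over all genes. In this comparison 15 of 15030 genes (0.0998%) passed it as higher in the knockout and 2 (0.0133%) as lower. At an unadjusted p under 0.05, 961 genes were higher and 461 lower (limma). Without any test, 20.7% of all genes had both knockout libraries above both wild-type libraries and 20.1% had both below. An exact permutation test of 2 against 2 libraries cannot give a two-sided p under 0.333. In bulk RNA, fewer cells of a type and less RNA per cell cannot be told apart.

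Promoters of 3 of these genes are shown because the transcripts of Gp1bb and Gp5, which encode chains of the same receptor, lay on opposite sides, and because Pf4 came nearest to the threshold among platelet genes. Given are the 250 bases before the RefSeq start on GRCm38.p6, with matches to the GATA motif AGATAA, on either strand, in capitals. Pf4 lies at chr5:90772185-90772434 on the plus strand, Gp1bb at chr16:18622404-18622653 and Gp5 at chr16:30310782-30311031, both on the minus strand.
Pf4: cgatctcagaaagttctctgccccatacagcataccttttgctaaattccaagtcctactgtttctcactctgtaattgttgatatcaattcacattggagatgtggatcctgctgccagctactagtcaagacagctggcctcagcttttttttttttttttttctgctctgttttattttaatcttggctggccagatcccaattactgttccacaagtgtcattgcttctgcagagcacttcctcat
Gp1bb: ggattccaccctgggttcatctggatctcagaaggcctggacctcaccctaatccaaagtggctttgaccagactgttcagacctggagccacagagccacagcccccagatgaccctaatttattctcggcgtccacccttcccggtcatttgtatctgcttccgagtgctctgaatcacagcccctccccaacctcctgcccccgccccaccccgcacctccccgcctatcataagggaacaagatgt
Gp5: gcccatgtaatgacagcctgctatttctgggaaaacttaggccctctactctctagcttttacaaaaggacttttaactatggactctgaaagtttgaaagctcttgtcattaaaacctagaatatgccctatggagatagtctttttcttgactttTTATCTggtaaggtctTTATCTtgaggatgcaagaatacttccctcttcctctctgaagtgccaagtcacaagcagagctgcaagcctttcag
Gp5 held 2 matches to AGATAA, both on the opposite strand, and Pf4 and Gp1bb held none in this window. None of these windows held the ETS motif CCGGAAG on either strand. Over all 27025 genes with a RefSeq promoter, 10.3% held AGATAA and 7.05% held CCGGAAG in a window of this length. RefSeq promoters matched 42 of the 56 receptor and cargo genes, of which 4 (9.52%) held AGATAA and 2 (4.76%) CCGGAAG. Only these exact strings were searched, and variants of either motif were not counted. A match is a description of letters only.

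Among the platelet surface receptors, 26 of 26 listed genes could be tested and none passed the threshold (limma), with 5 higher and 1 lower at an unadjusted p under 0.05. Both knockout libraries were above both wild-type libraries for 10 of them (38.5%) and below for 5 (19.2%). Over all genes these shares were 20.7% and 20.1%. The median log2 fold change was 0.19, against -0.03 over all genes tested. The lowest was Gp1bb (chromosome 16, 18620319 to 18622403), the beta chain of glycoprotein Ib, which with Gp1ba, Gp9 and Gp5 forms the receptor for von Willebrand factor. Its values were 413 and 103 in the knockout against 5975 and 3813 in the wild type. Both knockout libraries were far below both wild-type libraries, and the log2 fold change was -4.53 (SE 1.29, adjusted p = 0.194, limma).

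The partners of Gp1bb in that complex lay elsewhere. Gp5 (chromosome 16, 30307685 to 30310781), which encodes glycoprotein V, was at 15015 and 15493 in the knockout and at 6788 and 2445 in the wild type. This was higher without overlap, with a log2 fold change of 1.90 (SE 0.82, adjusted p = 0.450). Gp9 was at 491 and 599 against 915 and 551, and Gp1ba at 179 and 85.1 against 658 and 162, and for both the groups overlapped. Itga2b, the alpha chain of the platelet fibrinogen receptor, was at 7721 and 6008 against 9030 and 5623, a log2 fold change of -0.07 (SE 0.62), and its partner Itgb3 at 706 and 316 against 473 and 339.

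Other receptors of the list lay higher in the knockout without passing the test, and others, such as Pear1 (log2 fold change -1.49) and Clec1b (-1.22), on the low side. Selp, the P-selectin of alpha granule membranes, was at 6155 and 3000 in the knockout against 1987 and 480 in the wild type (log2 fold change 2.14, SE 0.60, adjusted p = 0.177, limma). F11r, which encodes the junctional adhesion molecule A, was at 2210 and 1723 against 890 and 133 (SE of the log2 fold change 0.66, adjusted p = 0.153). Esam, an endothelial and platelet adhesion molecule, was at 2964 and 2512 against 1256 and 343. Jam3 was at 169 and 137 against 34.6 and 1.62. In each of these genes wild type 2 was the lowest library. Without wild type 1 the log2 fold changes were 3.16 for Selp, 3.86 for F11r, 2.99 for Esam and 5.87 for Jam3. Without wild type 2 they fell to 1.11, 1.13, 1.12 and 2.11 in the same order. Each of these values rests on a lone wild-type library.

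**Figure D1:**
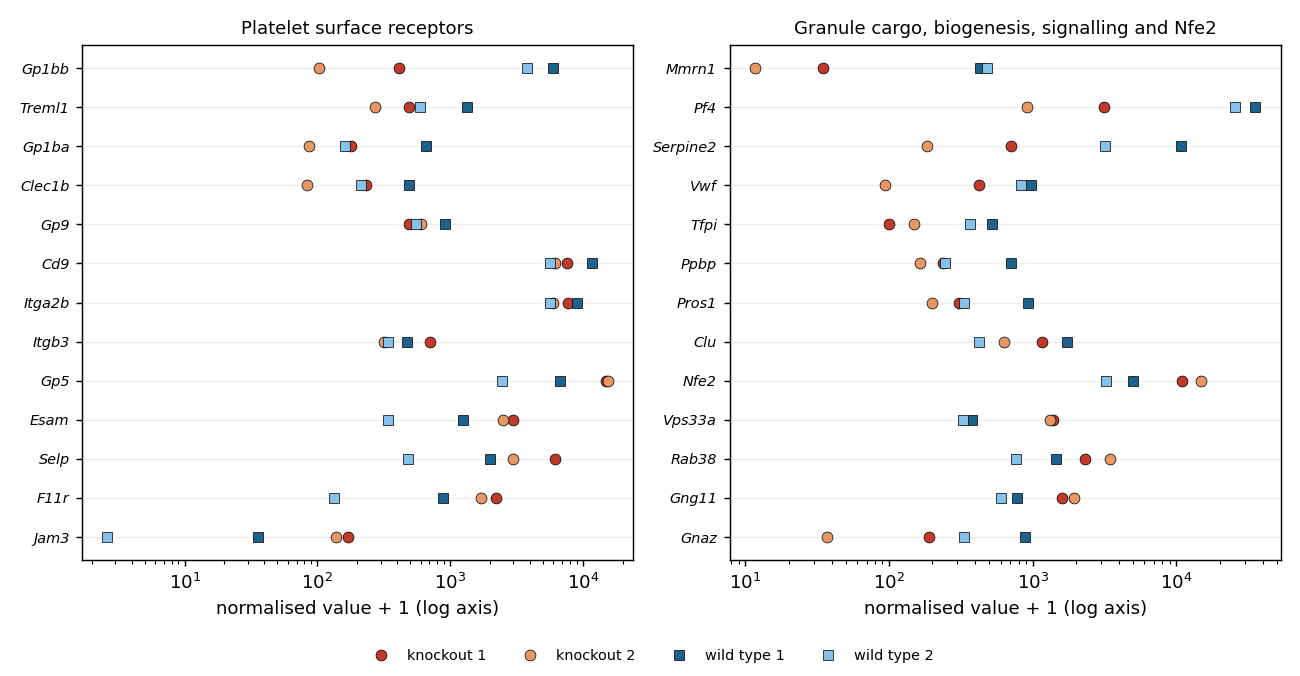
Input RNA of 26 platelet genes in the 4 MkP libraries. The x axis is the deposited normalised value plus 1 on a log axis, each row is a gene, circles are knockout and squares wild-type libraries. Gp1bb, Pf4, Serpine2 and Mmrn1 lie lower in both knockout libraries, Gp5, Selp, F11r and Nfe2 higher, and Itga2b overlaps.

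Alpha granule cargo leaned lower. Of 29 genes tested out of 30 listed, both knockout libraries were below both wild-type libraries for 14 (48.3%) and above for 4 (13.8%). Over all genes these shares were 20.1% and 20.7%. The median log2 fold change was -1.17. No gene of the list passed the threshold (limma). At an unadjusted p under 0.05, 6 were lower and 3 higher, against 461 and 961 of all 15030 genes. Pf4 (chromosome 5, 90772435 to 90773383), the chemokine platelet factor 4, came nearest. It was at 3137 and 909 in the knockout and at 35563 and 25623 in the wild type, so the groups were far from overlapping. The log2 fold change was -4.16 (SE 0.86, adjusted p = 0.0573, limma). With groups this far apart, leaving out 1 library cannot reverse the direction, so a kept direction is no separate evidence. Over 12 alternative settings the adjusted p of Pf4 lay between 0.00151 and 0.634, the direction was kept in all of them, and it passed the threshold in 5.

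Serpine2, an inhibitor of thrombin, was at 709 and 183 in the knockout against 10769 and 3172 in the wild type (log2 fold change -4.02, SE 1.08, adjusted p = 0.154). Mmrn1, the multimerin that holds factor V in the granule, was at 33.5 and 10.6 against 432 and 483. Vwf, the von Willebrand factor, was at 424 and 92.2 against 980 and 829 (log2 fold change -2.18, SE 0.83). For all 3 the groups did not overlap, and in each of them knockout 2 was the lowest library. Tfpi, the tissue factor pathway inhibitor, followed at 99.6 and 149 against 520 and 363. Ppbp, a chemokine stored with Pf4, was at 237 and 164 against 705 and 244, where the nearest libraries differed little. Clu was at 1160 and 628 against 1744 and 423 and overlapped. On the high side, Ecm1 was at 776 and 1127 against 232 and 112.

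The machinery of granule biogenesis and secretion was close to level. All 30 listed genes were tested and none passed the threshold, with 2 higher and 0 lower at an unadjusted p under 0.05. The median log2 fold change was 0.10. Both knockout libraries were above both wild-type libraries for 7 genes (23.3%) and below for 3 (10%). Over all genes these shares were 20.7% and 20.1%. The highest was Vps33a, a subunit of the complex that tethers vesicles to lysosomes, at 1379 and 1327 in the knockout against 378 and 328 in the wild type (log2 fold change 1.94, SE 0.49, adjusted p = 0.125, limma). Rab38, a small GTPase of lysosome-related organelles, was at 2302 and 3444 against 1445 and 766. Rab27b, which docks dense granules, was at 2345 and 940 against 4020 and 1595, and Nbeal2, which is needed for alpha granules to form, at 150 and 84.2 against 48.7 and 172. Both of these overlapped.

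Platelet signalling genes showed no common direction. Of 45 genes tested out of 46 listed, none passed the threshold, with 2 in each direction at an unadjusted p under 0.05. Both knockout libraries were above both wild-type libraries for 9 (20%) and below for 13 (28.9%), against 20.7% and 20.1% of all genes. The median log2 fold change was -0.16. Gnaz, the alpha subunit of the G protein Gz, was at 189 and 36.3 in the knockout against 878 and 334 in the wild type (log2 fold change -2.69, SE 1.09, adjusted p = 0.409). Rasgrp2, the exchange factor that activates Rap1 ahead of the integrin, was at 667 and 418 against 1734 and 1216. P2ry1, a receptor for ADP, was at 294 and 169 against 493 and 333. In the other direction, Gng11 was at 1602 and 1954 against 773 and 602 (log2 fold change 1.37, SE 0.52), and Gna13 at 955 and 628 against 516 and 260. Receptors for thrombin and thromboxane showed smaller differences: F2r was at 3742 and 2630 against 2508 and 1658, and Tbxa2r at 543 and 385 against 616 and 366.

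In the list of thrombopoietin and cytokine signalling, 1 of 30 genes passed the threshold. Csf2rb (chromosome 15, 78325800 to 78351001), the common beta chain of the receptors for interleukin 3, interleukin 5 and GM-CSF, was at 409 and 1370 in the knockout against 65.3 and 9.70 in the wild type. It rose by a log2 fold change of 4.82 (SE 0.79, adjusted p = 0.0107, limma). Mouse cells also have a close copy of this gene, and how reads were divided between the copies is not stated, so its value is uncertain. Among negative regulators in the list, Cbl was level at 76.9 and 69.1 in the knockout against 66.0 and 73.5 in the wild type. Those of the SOCS family did not overlap and did not pass the test. Socs3 was at 206 and 388 against 39.7 and 0, Socs1 at 222 and 431 against 141 and 89.3, Socs2 at 525 and 403 against 349 and 117, and Cish at 161 and 163 against 82.0 and 72.7. Over the list, both knockout libraries were above both wild-type libraries for 11 genes (36.7%) and below for 4 (13.3%). Over all genes these shares were 20.7% and 20.1%.

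Transcription factors of the lineage differed little. Of 26 tested, none passed the threshold, with 1 higher and 2 lower at an unadjusted p under 0.05. In all, 4 (15.4%) were higher and 4 (15.4%) lower without overlap, against 20.7% and 20.1% of all genes. The median log2 fold change was 0.17. Nfe2 (chromosome 15, 103248212 to 103258403), a subunit of NF-E2, was at 10893 and 14910 in the knockout against 4974 and 3248 in the wild type (log2 fold change 1.66, SE 0.65, adjusted p = 0.386). Gata1 was at 1117 and 1548 against 2488 and 1875, and Mycn at 6118 and 5516 against 3018 and 2269. Fli1, Runx1, Tal1 and Gfi1b each overlapped between the genotypes, with log2 fold changes between 0.18 and 0.28. Mecom was at 45.4 and 31.9 against 54.5 and 755, so the difference rested on wild type 2.

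**Figure D2:**
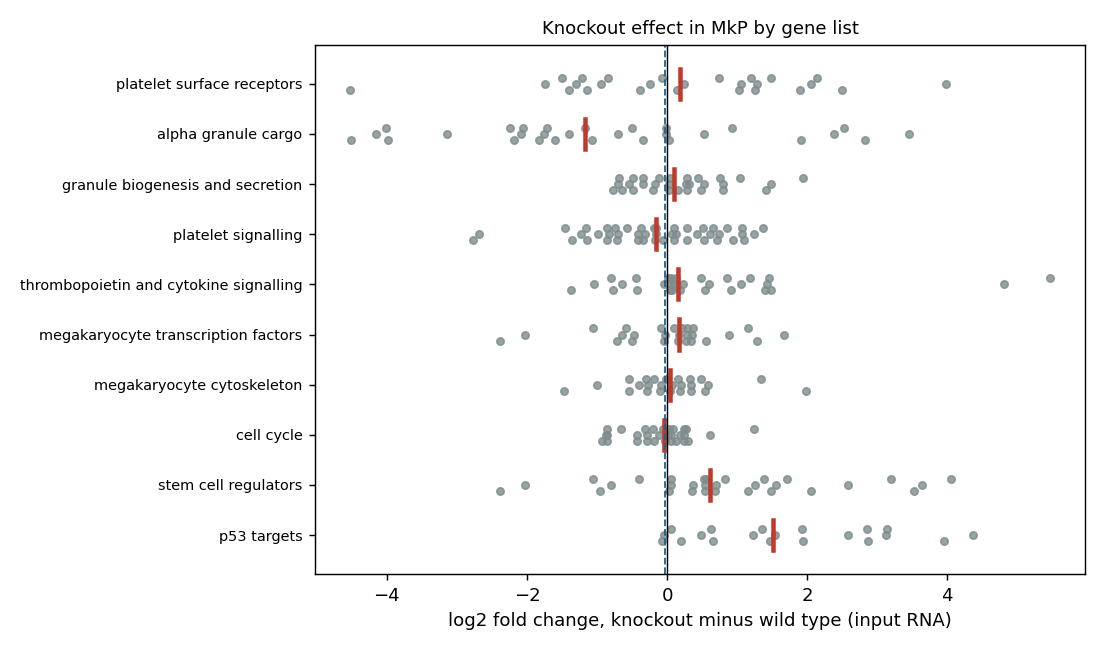
Log2 fold change of input RNA, knockout minus wild type in MkP, for each tested gene of 10 lists. Each grey point is a gene, spread vertically only for legibility; the red bar is the median of the list and the dashed line the median of all 15030 genes tested. Alpha granule cargo has its median at -1.17 and the p53 targets at 1.51.

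The 15 genes that passed the threshold as higher in the knockout were outside the platelet lists, apart from Csf2rb. The 10 highest by the naming rule were Gzmb, Sh3d21, Arhgef10l, Rgs3, Rtkn, Sytl1, Eps8, Csf2rb, Pim2 and Zfp467. The other 5, Tubb6, Tnfrsf1a, Mpzl1, Gramd3 and the gene model A430089I19Rik, are named although they fall outside the rule, after their values were seen. Pim2 (chromosome X, 7878306 to 7883432), a serine and threonine kinase that promotes survival downstream of cytokine receptors, was the most abundant of the 15. It was at 2489 and 3833 in the knockout against 242 and 83.6 in the wild type, a log2 fold change of 4.43 (SE 0.66, adjusted p = 0.0072, limma). Tubb6, a beta tubulin, was at 1848 and 1794 against 291 and 50.5, and Tnfrsf1a, a receptor for tumour necrosis factor, at 792 and 967 against 120 and 67.1.

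Rgs3, which shortens G protein signals, was at 158 and 238 in the knockout against 18.6 and 0 in the wild type. Rtkn was at 209 and 167 against 26.9 and 0, Arhgef10l, a guanine nucleotide exchange factor, at 66.1 and 132 against 1.92 and 0, and Eps8, an actin regulator, at 192 and 92.2 against 10.9 and 0.40. Sytl1, which binds Rab27 in secretion, was at 169 and 160 against 22.4 and 0. Gzmb (chromosome 14, 56258836 to 56262334), granzyme B, a protease of cytotoxic granules and of mast cells, was at 81.8 and 236 against 0 and 0.40 (log2 fold change 6.88, SE 1.07, adjusted p = 0.0084). A430089I19Rik had no reads in either wild-type library and was at 138 and 87.7 in the knockout. Against a floor of 3 reads in each wild-type library it was at least 72.0-fold higher.

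Both genes that passed the threshold as lower in the knockout were also outside the platelet lists. Gdf3 (chromosome 6, 122605403 to 122610087), a ligand of the TGF-beta family, was at 30.6 and 24.8 in the knockout against 657 and 605 in the wild type, and fell by 4.47 on the log2 scale (SE 0.80, adjusted p = 0.0228, limma). Adamtsl5, a secreted matrix protein, was at 5.92 and 4.43 against 91.6 and 175 (log2 fold change -4.38, SE 0.86, adjusted p = 0.0399). For both genes the groups were far from overlapping. Just outside the threshold, beside Pf4, was Epn3, at 60.1 and 62.0 in the knockout against 0.64 and 0 in the wild type (adjusted p = 0.0573). Among the 10 lowest fold changes without regard to the threshold were Gp1bb, Mmrn1 and Glrp1, at 2.96 and 1.77 against 97.4 and 113 for the last. Foxf2 and Alpk2 were among them too, and there the wild-type libraries differed widely, at 1.28 and 301 for Foxf2 and 46.1 and 1762 for Alpk2. The others of these 10 were Cc2d2a and the pseudogenes Rps6-ps4, Rpl27-ps3, Trmt112-ps2 and Dynlt1-ps1, whose reads may come from their parent genes.

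These counts depended on single libraries and on the test. In wild-type MkP, 9 of the 15 higher genes had a lower level than in the other wild-type cell types at an adjusted p under 0.05 (limma). Over all genes this was 1.18%. Both comparisons use the same wild-type MkP libraries, so genes picked for low values there are favoured in both. The count is therefore no separate evidence. In 12 of the 15 wild type 2 lay below wild type 1, and it was at 0 in 6 of them, against 2 for wild type 1. Without wild type 2 the test called 1 gene higher and none lower; without wild type 1 it called 299 higher and 52 lower. Without knockout 1 it called 4 higher (A430089I19Rik, Csf2rb, Gzmb and Pim2), and without knockout 2 it called 1, with none lower in either. A430089I19Rik was the gene that passed without wild type 2 and without knockout 2. The quasi-likelihood test of edgeR on reads recovered from the same values called none in either direction, with 788 genes higher and 533 lower at an unadjusted p under 0.05, where limma had 961 and 461. All 17 genes kept their direction in each of 12 alternative settings, and none kept its call in all 12. The groups did not overlap for any of the 17, and the settings reuse the same MkP libraries. Leaving out 1 library could not reverse a direction, so the kept direction is no separate evidence.

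**Figure D3:**
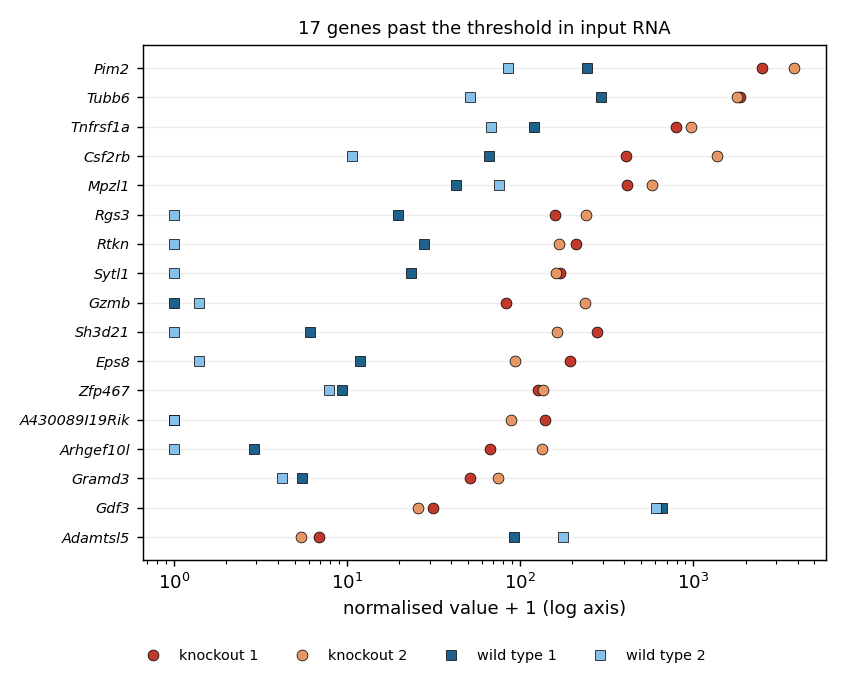
Input RNA of the 17 genes past the threshold in the 4 MkP libraries. The x axis is the deposited normalised value plus 1 on a log axis, so that 1 stands for no reads; circles are knockout and squares wild-type libraries. The knockout libraries do not overlap the wild-type libraries for any gene shown, and wild type 2 sits at the left edge for 6 genes.

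Genes of other programmes are given from lists that were chosen with earlier results of these data known. The p53 targets had the highest median of the lists in the plot by gene list, 1.51 over 20 genes. Without overlap, 12 (60%) were higher and none (0%) lower, against 20.7% and 20.1% of all genes. At an unadjusted p under 0.05, 5 were higher, and none passed the threshold (limma). Cdkn1a, the cell cycle inhibitor p21, was at 1153 and 1669 in the knockout against 282 and 187 in the wild type (log2 fold change 2.59, SE 0.95, adjusted p = 0.346, limma). Gdf15, a secreted stress factor, was at 312 and 189 against 32.0 and 22.2, and Phlda3, an inhibitor of Akt, at 765 and 596 against 81.4 and 72.3. These are among the larger changes: log2 fold changes in the list ran from -0.08 for Ei24 to 4.37 for Perp. Wild type 1 was over 4-fold above wild type 2 in 6 of the 20, against 9.95% of all genes, and the reverse held for none of the 20. Of 30 stem cell regulators 12 (40%) were higher and 3 (10%) lower without overlap, and the median was 0.62. Of 30 cell cycle genes none passed the threshold and the median was -0.04, with 2 (6.67%) higher and 8 (26.7%) lower without overlap. For 25 cytoskeleton genes the median was 0.05, with 2 (8%) higher and 2 (8%) lower. The 30 interferon response genes had a median of 0.20, with 9 (30%) higher and 3 (10%) lower without overlap. The 13 mitochondrial transcripts had a median of -0.76, with 6 (46.2%) lower and none higher without overlap. Among the m6A machinery the 9 writers had a median of 0.05. Of the 12 readers, none passed the threshold, 3 (25%) were higher and 2 (16.7%) lower without overlap, and the median was 0.16. Ythdf2 was at 5379 and 6178 in the knockout against 2643 and 2246 in the wild type (log2 fold change 1.24, adjusted p = 0.393), and Igf2bp2 was at 34.5 and 7.09 in the knockout against 113 and 183 in the wild type (log2 fold change -3.10, adjusted p = 0.343).

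The 2 knockout libraries differed from each other in content rather than in overall agreement. Of all genes tested, 551 (3.67%) were over 4-fold higher in knockout 1 and 755 (5.02%) in knockout 2. Both directions together made 8.69%, the smallest share of the 14 input pairs. In the wild-type pair these were 1496 (9.95%) and 1349 (8.98%). There is no test of 1 library against another, and the values are a description. Over all genes tested, knockout 1 was above knockout 2 in 7174 and below in 7260. It was above in 11 of the 12 megakaryocyte markers, in 19 of 26 surface receptors and in 32 of 45 signalling genes. The median log2 differences were 1.08, 0.33 and 0.37 in the same order. Wild type 1 also lay above wild type 2 in these lists, by medians of 0.95, 0.89 and 0.53. For receptors and signalling genes the wild-type pair thus split the same way and more widely. The alpha granule cargo list was mixed, with knockout 1 above knockout 2 in 16 genes and below in 13. Pf4 differed 3137 against 909, Serpine2 709 against 183 and Vwf 424 against 92.2, while Tfpi was at 99.6 and 149.

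Genes of granulocytes went the other way and by much more. All 7 markers of granulocyte monocyte progenitors were higher in knockout 2, with a median log2 difference of -3.99 for knockout 1 minus knockout 2, against -0.23 for the wild-type pair. Mpo (chromosome 11, 87793784 to 87804412) was at 1407 in knockout 1 and 37011 in knockout 2, beside 32197 and 27726 in the wild type. Elane, neutrophil elastase, was at 230 and 4017 beside 10213 and 10561, and Ctsg, cathepsin G, at 53.2 and 858 beside 1151 and 1839. Knockout 1 was the lowest library for each of these 3. Knockout 2 was below the wild type for Elane and Ctsg and slightly above it for Mpo. For Prtn3 (497 and 4351 beside 1315 and 1540) and Ms4a3 (316 and 3282 beside 681 and 898), knockout 2 stood above the wild type as well.

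Markers of further cell types were also mostly higher in knockout 2. All 9 neutrophil markers, 9 of 10 mast cell and basophil markers and 9 of 10 dendritic cell markers were above knockout 1. The neutrophil list split the wild type as well and more widely, with a median log2 difference of 4.73 for wild type 1 minus wild type 2 against -2.91 for knockout 1 minus knockout 2. S100a8 was at 137 and 3803 in the knockout beside 1186 and 132 in the wild type, Fcer1a, a chain of the IgE receptor, at 227 and 1314 beside 50.6 and 127, and Cd74, the invariant chain of MHC class II, at 102 and 2787 beside 194 and 42.0. The summed value of the dendritic list was 619 in knockout 1 and 8096 in knockout 2, against 1045 and 638 in the wild type, while its member Siglech was at or under 1.62 in all 4 libraries. All 12 erythroid markers were higher in knockout 2 too, with a median log2 difference of -1.49, against -2.62 in the wild-type pair. The summed erythroid value ran from 7941 to 26494 over the 4 libraries, with the highest in wild type 2. Whether these lineages take part in the differences between genotypes was not tested.

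For single genes, those with a mean of at least 50 over the knockout libraries and under 2-fold between the wild-type libraries were ranked by the knockout split, 6278 genes in all. The 10 largest differences toward knockout 1 were Sik1, Lhfp, Pagr1a, Zfp36l1, Nr4a2, Senp2, Ache, Grap2, Rc3h1 and Serpinb10. Zfp36l1, which encodes a protein that destabilises AU-rich messages, was at 3427 and 429 in the knockout beside 1266 and 1056 in the wild type. Nr4a2, an early response receptor, was at 236 and 37.2 beside 72.4 and 79.2. Toward knockout 2 they were Igkv13-84, Mtus1, Igsf6, Fcna, H2-Aa, Clec5a, Prss57, Mpo, Wfdc17 and Fam20c. H2-Aa, a chain of MHC class II, was at 15.8 and 880 beside 32.7 and 55.4, and Igkv13-84, an immunoglobulin light chain segment, was at 215 in knockout 2 and without reads in the other 3 input libraries. In the IP libraries, which the rule did not use, 7 of the 10 genes toward knockout 1 and 10 of the 10 toward knockout 2 had the same sign. Of all 6278 genes, 37.5% were higher in knockout 1 in IP. The input and IP libraries of a number may come from the same RNA, which the labels do not say.

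Early response genes split both genotypes by library number. Fos was at 1104 in knockout 1 and 15.1 in knockout 2, and at 696 and 0.81 in wild type 1 and 2. Jun was at 10292 and 207 in the knockout and at 6957 and 94.1 in the wild type, and Egr1 at 4318 and 80.7 against 1119 and 7.68. Library 1 was thus high in both genotypes. Over all 14 pairs of the table, library 1 was the higher for Fos in 14, for Jun in 13 and for Egr1 in 13, and by over 4-fold in 12, 12 and 13. The labels do not say what the numbers stand for. A fit with the number as a term is given with the alternative settings.

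**Figure D4:**
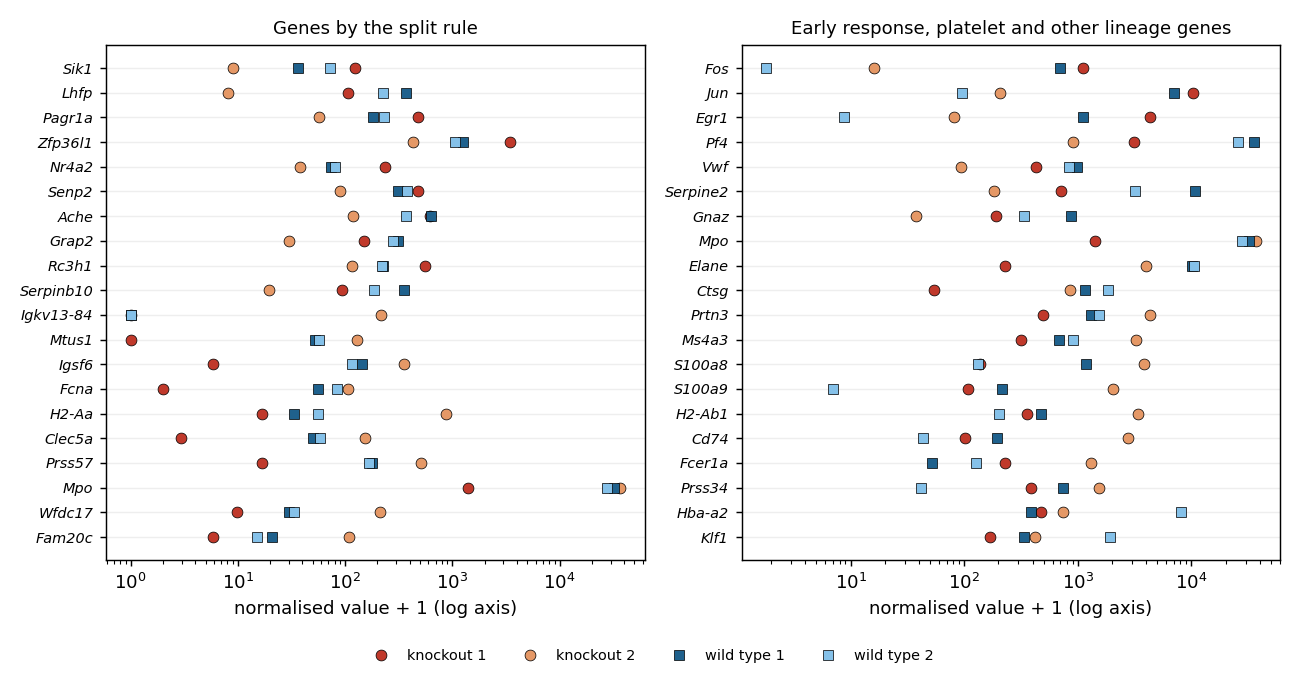
Input RNA in the 4 MkP libraries, as the deposited normalised value plus 1 on a log axis. Circles are knockout and squares wild-type libraries. On the left are the 10 genes furthest toward each knockout library by the split rule; on the right are early response, platelet, granulocyte, antigen presentation, mast cell and erythroid genes. Mpo is at 1407 in knockout 1 and between 27726 and 37011 in the other 3 libraries.

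In the precipitated RNA, 1 gene of 17463 (0.00573%) passed the threshold as higher in the knockout and none as lower (0%), by edgeR's quasi-likelihood test. At an unadjusted p under 0.05 these were 1563 and 386, and DESeq2 called 761 and 115. Groups did not overlap for 21.4% of genes with the knockout higher and for 9.06% with the knockout lower. The median log2 fold change over all genes was 0.24 with TMM scaling and 0.13 with DESeq2 size factors, so directions of single genes are relative to that shift. Dipk1a (chromosome 5, 107908042 to 107987077), which encodes a kinase-like protein of the endoplasmic reticulum, was at 233 and 115 CPM in the knockout and at 0 and 0.71 in the wild type (adjusted p = 0.0357). Its input values were 1385 and 911 against 1119 and 931, so they overlapped. Without the IP library of wild type 1, in which 15.5% of expressed genes were at 0, the adjusted p of Dipk1a was 0.585 and no gene passed, with 1028 higher and 358 lower at an unadjusted p under 0.05. Without wild type 2 of the IP libraries 18 genes were higher, without knockout 2 there were 12, and without knockout 1 there were 2, Dipk1a and Ttyh2, and none was lower in these 3 settings.

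Platelet genes did not pass the test in the IP libraries. Of 29 cargo genes, both knockout libraries were above both wild-type libraries for 7 and below for 7, and of 25 receptors for 11 and 2. Over all genes in IP the shares were 21.4% and 9.06%. Pf4 was at 3817 and 356 CPM in the knockout against 18147 and 6400 in the wild type (log2 fold change -2.54, SE 1.12, adjusted p = 0.416, edgeR). Gp1bb was at 25.6 and 21.4 against 261 and 157, Serpine2 at 18.2 and 5.73 against 347 and 92.7, and Vwf at 83.6 and 18.5 against 277 and 136. On the other side, Selp was at 141 and 104 against 34.0 and 1.69, and Gp5 at 108 and 341 against 95.2 and 97.4. Of the 15 genes higher in input, 11 were also higher without overlap in IP, against 21.4% of all genes. Rgs3 was an exception, at 0.31 and 7.75 in the knockout against 74.2 and 23.7 in the wild type. IP counts also depend on the amount of the transcript, and input and IP libraries of a number may come from the same RNA. The count of 11 is therefore no separate evidence.

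Enrichment for m6A was taken per gene as the log2 ratio of IP to input. Because IP and input were each scaled to their own libraries, any change in m6A common to the whole transcriptome drops out, and what remains are differences between genes. Of 14225 genes, 2 (0.0141%) had a higher enrichment in the knockout and none a lower one (0%) by limma, with 869 and 163 at an unadjusted p under 0.05. The median difference over all genes was 0.52, and 23.5% of genes were higher and 10% lower without overlap. The 2 genes were Dipk1a, by 8.92 on the log2 scale (adjusted p = 0.000389), and Vgll4, a cofactor of TEAD factors, by 7.10 (adjusted p = 0.0375). Both were near 0 in the wild-type IP libraries. Without the IP library of wild type 1, 5 genes were called higher, Dipk1a among them (adjusted p = 0.00823) and Vgll4 not. Without that of wild type 2, 505 were called higher and 19 lower. Pf4 differed in enrichment by 0.86 (SE 1.49) and Gp1bb by 1.33 (SE 2.70), so neither was resolved from 0 or from the median of all genes. Among 29 alpha granule cargo genes the median difference in enrichment was 0.38, and among 45 signalling genes -0.13, both below the median of all genes.

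The effect in MkP was then compared with the mean effect in the other 6 cell types. No gene differed past the threshold in either direction (0% of 15030 genes, limma, lowest adjusted p = 0.609), with 425 higher and 210 lower at an unadjusted p under 0.05, and edgeR on recovered reads called none, with 243 and 254. Without wild type 1, 119 genes were higher and 11 lower, and none was without any other MkP library. Each cell type has its own wild-type libraries, so the effects can be set side by side. By the difference of mean log2 values, Gp5, Selp, F11r, Nfe2, Vps33a, Pim2, Tubb6 and Csf2rb were on the high side in the knockout in all 6 other types. For Gp5 in GMP the libraries overlapped, at 378 and 493 in the knockout against 920 and 128 in the wild type, and the plain means lay the other way. The genotypes also overlapped in GMP for Nfe2, Pim2 and Csf2rb, and in CMP for Csf2rb. By the same measure Gdf3 was lower in all 6. Pf4 was lower in 5 of them, with log2 fold changes down to -2.17, and higher by 2.60 in MEP. Its libraries overlapped between the genotypes in LT.HSC, ST.HSC, MPP and CMP, and were apart in GMP and MEP. Gp1bb and Mmrn1 were also lower in 5 of 6, with MEP the exception for both. Among these 5 types, libraries overlapped in MPP for Gp1bb and in CMP for Mmrn1. Vwf was lower in 2 of 6, with log2 fold changes between -0.96 and 0.84, and its libraries overlapped in each of these types but GMP. Itga2b was higher in all 6 others, between 0.17 and 3.66, where in MkP it was level. In LT.HSC, ST.HSC and GMP its libraries overlapped between the genotypes.

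In the wild type Pf4 was at 35563 and 25623 in MkP, at 4720 and 1704 in CMP, and at or under 1502 in every library of the other 5 types. In the knockout Pf4 was at 3137 and 909 in MkP, at 1804 and 1193 in CMP and at 1814 and 445 in MEP, so that MkP overlapped both of these types. Gp5 remained highest in MkP in both genotypes, at 15015 and 15493 in the knockout, where CMP followed at 3278 and 10304.

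**Figure D5:**
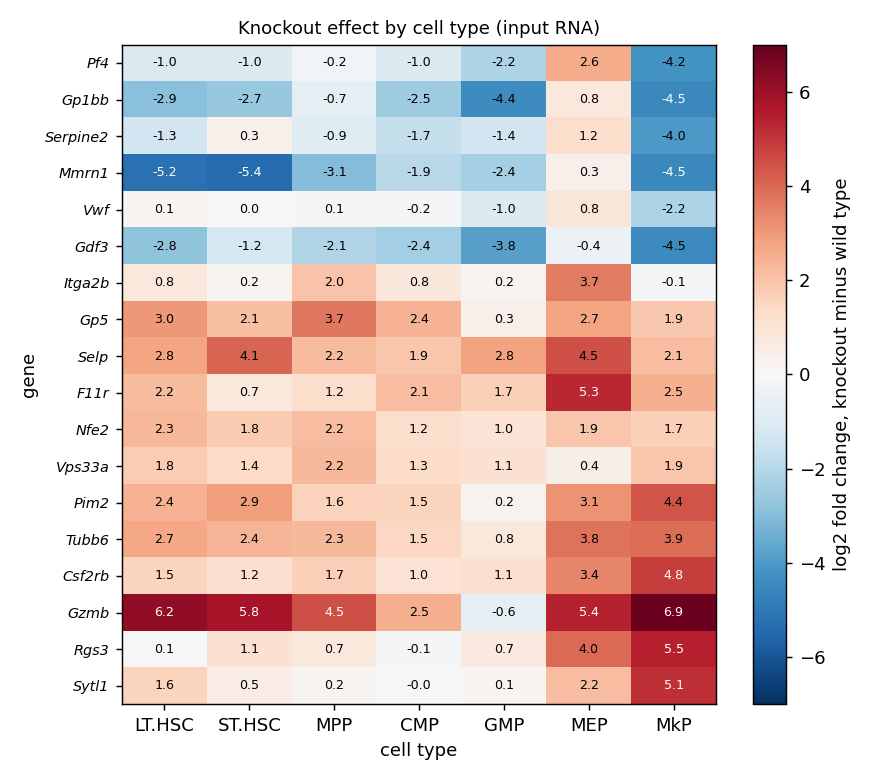
Log2 fold change of input RNA, knockout minus wild type, for 18 genes in 7 cell types. Colours and printed values give the difference of mean log2 values of 2 libraries each, red for higher and blue for lower in the knockout. Pf4 is at -4.2 in MkP and 2.6 in MEP, and Gp5, Selp and Nfe2 are above 0 in every column.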

How the data were processed

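Input and anti-m6A IP RNA were read from 28 libraries each, of 7 cell types with 2 per genotype, and the MkP libraries were taken by title. Per the submitters' processing notes, kallisto, Trimmomatic and fastp were used with the build GRCm38; their versions and roles are not stated there. Input values are normalised signal as deposited by the authors: 100% of them are whole multiples of a step per library (tolerance 0.1 of a read), which gave the reads. IP values are estimated counts as deposited, rounded here. A deposited table of T-to-C fraction values in a chase of MkP holds the authors' averages and enters no comparison. No column of per-sample values was left unmapped (0).

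Input was tested with limma 3.58.1 (trend) on log2(value + 1) over all 28 libraries, for genes at 10 or more in at least 2. Fold changes on this scale understate the change of low genes. IP counts were tested with edgeR 4.0.16 (quasi-likelihood, TMM, filterByExpr), with DESeq2 1.42.0 as an alternative. Enrichment was tested with limma over 56 libraries. R was 4.3.3. P-values were adjusted by Benjamini-Hochberg over all genes, with a threshold of 0.05, and the spread came from 14 degrees of freedom within input pairs. The scripts were tested on simulated data.

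Named genes were the 10 highest and 10 lowest fold changes past the threshold that had no overlap and a higher-group mean of at least 50, without Gm and Rik models; where fewer passed, those, and then the same without the threshold; Mettl3; members of the platelet, granule, signalling, cytokine and transcription factor lists; and the 10 largest splits each way. Genes of other lists and marker genes were chosen with their values known. The members and lists were chosen with earlier results of these data known. One member of the cytokine list is not reported here.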

Additional observations from a re-analysis of the deposited data

How the results depend on the processing

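The input test called 15 genes higher and 2 lower, 17 in all, of which 88.2% were higher. With a pseudocount of 10 it called 27 genes (74.1% higher, 7 lower). A filter on values above 0 gave 16 (75% higher, 4 lower). Without the wild-type LT.HSC pair there were 22 (81.8% higher, 4 lower). With library quality weights the counts were 37 higher and 4 lower. They were 0 and 0 with edgeR on recovered reads (788 and 533 at an unadjusted p under 0.05) and with the MkP libraries alone (855 and 521), which leaves fewer samples and genes. Leaving out 1 MkP library gave 1 to 299 higher and 0 to 52 lower. The MkP effect against the other types, 0 and 0, became 1 and 1 with a pseudocount of 10 (A430089I19Rik and Lim2), 2 and 2 with the filter above 0 (Pdc and Slc22a16 higher, Ifnab and Slc5a1 lower), and 0 to 119 higher and 0 to 11 lower without 1 library. Wild-type MkP against the other types, 131 and 177, became 249 and 62 with edgeR, 76 and 100 with quality weights, and 20 to 103 higher and 12 to 360 lower without 1 library. The share of higher calls in it was 42.5%, and 52.7% with a pseudocount of 10.

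IP counts of 1 and 0 became 761 and 115 with DESeq2, 137 and 6 with a filter on counts above 0, 10 and 1 with the MkP libraries alone, 28 higher without 3 IP libraries of other types that stand apart, and 0 to 18 higher and 0 lower without 1 MkP library. Enrichment counts of 2 and 0 became 1 and 1 with a pseudocount of 10, 5 and 1 with a filter at 50, 6 higher with edgeR, 0 higher with the MkP libraries alone, 14 and 1 without those 3 IP libraries, and 1 to 505 higher and 0 to 19 lower without 1 MkP library. The split counts of 551 and 755 genes became 76 and 175 with a pseudocount of 10, which shrinks low genes by construction. For the other changes the cause was not tested. No result changed direction past the threshold. The effect of read depth on these counts was not tested.

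The labels do not say what replicate numbers share, and the numbers were not treated as pairs. The deviations of same-numbered libraries correlated at 0.02 in MkP input and 0.06 in MkP IP, and over the 7 types between -0.11 (MPP) and 0.22 (MEP) in input, although early response genes followed the number in nearly all pairs. With the replicate block the input counts were 27 and 6, holding all 17 of the main calls, with Pf4 (adjusted p = 0.00151, limma) and Gp1bb (0.0488) past the threshold. The block gave 0 and 0 for the MkP effect against the other types, 159 and 221 for wild-type MkP, 1 and 0 for IP, and 7 and 1 for enrichment.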
